A study of Saccharomyces cerevisiae with 9 samples.

Results

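The 30 genes described here encode the enzymes of glycolysis, of alcoholic fermentation and of the pentose phosphate pathway in the budding yeast Saccharomyces cerevisiae. They were chosen by name and gene identifier and not by a cutoff on measured values, but with earlier results of these data known. They run from the hexose kinases through the glycolytic steps to the pyruvate decarboxylases and 3 alcohol dehydrogenases (23 genes), with 7 enzymes of the pentose phosphate pathway. All 30 were among the 5928 genes measured, and all 30 passed the filter on low counts that left 5646 genes for testing.

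Glycolysis splits glucose into pyruvate, and in fermentation pyruvate is decarboxylated to acetaldehyde and reduced to ethanol, which regenerates the NAD+ that glycolysis uses. The pentose phosphate pathway branches off at glucose 6-phosphate; its oxidative arm yields NADPH and its nonoxidative arm interconverts sugar phosphates and supplies ribose for nucleotides. In yeast grown on glucose, fermentation runs even with oxygen present, the glycolytic genes are among the most strongly transcribed in the cell, and several steps have an additional isozyme gene that is typically expressed at a low level on glucose or used on other carbon sources.

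RNA was sequenced from 3 groups of 3 biological replicates, all w303 strains of mating type alpha with ura3-1, trp1-delta, ade2-1 and his3-11,15 and with a leu2 marker allele. In every strain the chromosomal PCF11, which encodes a subunit of the complex that cleaves pre-mRNA 3′ ends and ends transcription, was replaced by TRP1 (pcf11-delta::TRP1), and a plasmid with LEU2 supplied PCF11. Pcf11-DNL carried the pcf11-deltaN-link allele, whose plasmid label also names V5 and MYC; Pcf11-13 carried the pcf11-13 allele, with no tag named; and wild type carried PCF11 with V5 and MYC. The growth temperature was 30 °C, harvest took place between 1.0 and 1.2 optical density units, and the treatment label of every library is glucose. Pcf11-13 therefore differed from the other groups in tags as well as in allele, and these cannot be told apart in comparisons with it; how many clones each strain represents is not given in the sources used here.

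Library totals lay between 11372819 and 15906466 expected counts. The PCF11 transcript averaged 67.4 CPM (counts scaled to library size, after TMM) in Pcf11-DNL, 648 CPM in Pcf11-13 and 84.7 CPM in wild type, so PCF11 transcript level also moved with the allele and its part in the results was not tested. Against wild type LEU2 had a log2 fold change of 0.14 in Pcf11-DNL and −0.71 in Pcf11-13, and its part was not tested either. The alpha-specific gene MF(ALPHA)1 averaged 977 CPM in Pcf11-DNL, 877 CPM in Pcf11-13 and 1091 CPM in wild type, and the a-specific gene MFA2 had 0 counts in all 9 libraries. Of 4 alpha-specific genes 3 were lower in Pcf11-DNL (background 4.30% of all genes tested) and 4 in Pcf11-13 (30.9%) than in wild type. Of 6 a-specific genes the 3 tested, at means of 7.12 to 36.0 CPM, were higher in Pcf11-13 (background 35.2%). In Pcf11-DNL none of those 3 was called. The part of these mating-type genes in the results was not tested. Wild type replicate 1 stood apart from the other wild type libraries (chi-square per degree of freedom 10.7 and 10.1, against 2.49 to 4.68 for the other replicate pairs), so its effect is given where it changes a call.

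In Pcf11-13 the bulk of the pathway fell and the less used isozymes of several steps rose. Relative to wild type, 18 of the 30 genes were lower and 6 were higher (edgeR quasi-likelihood F test, adjusted p under 0.05), against a background of 30.9% of all genes tested that were lower and 35.2% that were higher. The genes that rose were HXK1, GLK1, PYK2, PDC5, PDC6 and ZWF1; HXK2, TDH1, ENO1, ADH3, ADH5 and TAL1 did not pass. The median log2 fold change of the 30 genes was −0.25, and that of all genes tested was 0.03. In Pcf11-DNL 2 genes were higher (background 8.73%) and 5 lower (background 4.30%), all but TDH1 by no more than 0.20 on the log2 scale, and the median was −0.03 beside 0.00063 for all genes. Between the mutants, 20 genes were higher (background 29.5%) and 6 lower (background 30.9%) in Pcf11-DNL than in Pcf11-13, with a median of 0.17 beside −0.02. The 3 comparisons share libraries pairwise, so they are not independent of each other. By their libraries alone, without a test, 6 of the 30 genes lay wholly above wild type in Pcf11-13 (background 37.0%) and 17 wholly below it (32.7%). In Pcf11-DNL 3 lay wholly above wild type (17.0%) and 8 below it (15.8%), and 22 lay wholly above Pcf11-13 (32.9%) and 6 below it (34.1%).

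**Figure D1:**
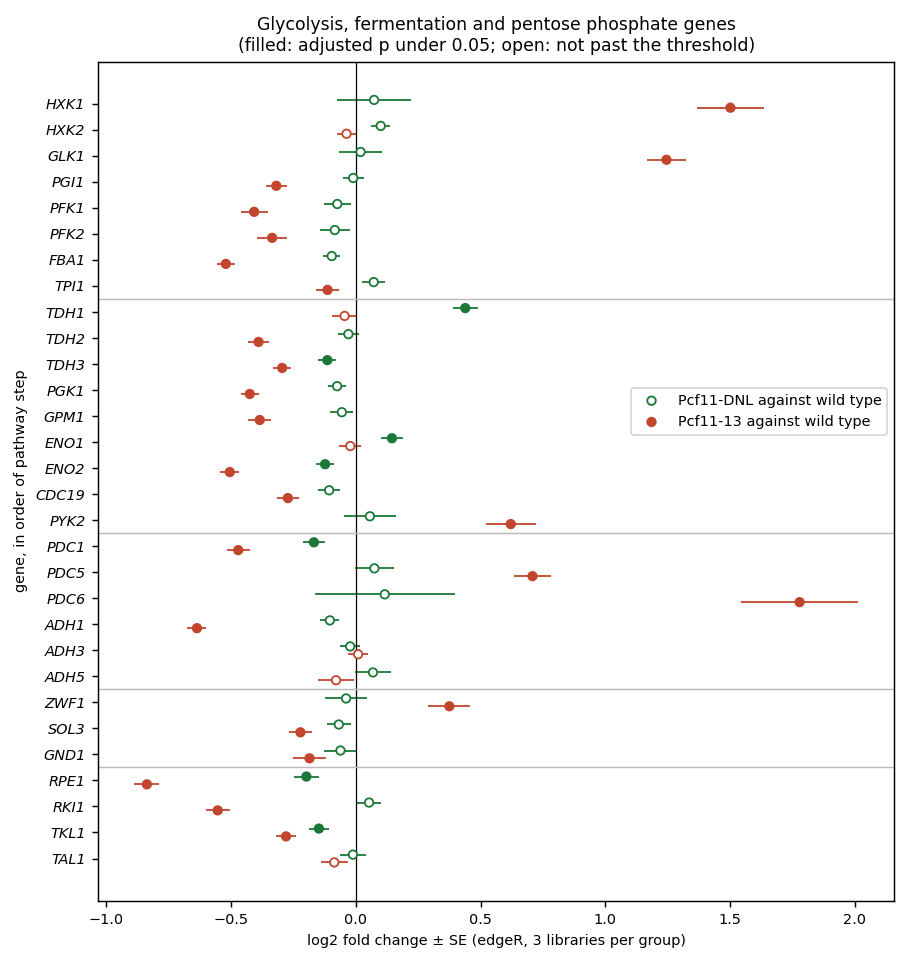
The log2 fold change of each of the 30 genes with its standard error (horizontal axis) is plotted in pathway order, for Pcf11-DNL (green) and Pcf11-13 (red), each against wild type; filled points have an edgeR adjusted p under 0.05. The red points spread from −0.84 for RPE1 to 1.78 for PDC6, while all green points but that of TDH1 (0.44) lie between −0.20 and 0.14.

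In Pcf11-13 most of the main enzymes' genes fell, and most of the genes that rose encode a less used isozyme. Of the 13 genes that encode the main or sole enzyme of a glycolytic or fermentative step, 12 fell, HXK2 did not pass, and the median log2 fold change was −0.39. Of the 10 genes for the other isozymes 5 rose, TDH2 fell and 4 did not pass, with a median of 0.32. The 7 pentose phosphate genes had a median of −0.22: 5 fell, ZWF1 rose and TAL1 did not pass. The background for these counts is 35.2% of all genes tested that rose and 30.9% that fell. This division into main and other isozymes rests on their known roles and was drawn with earlier results of these data known.

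At the entry to glycolysis, the transcripts of the minor hexose kinases more than doubled in Pcf11-13 while that of the main hexokinase did not pass the test. HXK1 (YFR053C, chromosome VI, 253592 to 255049, minus strand), a hexokinase repressed by glucose, had 37.7, 29.7 and 41.0 CPM in the Pcf11-DNL libraries, 78.2, 112 and 101.3 CPM in Pcf11-13, and 27.3, 34.7 and 39.8 CPM in wild type. All 3 Pcf11-13 libraries lay above all others, and Pcf11-DNL overlapped wild type. The log2 fold change against wild type was 0.07 ± 0.15 (SE) in Pcf11-DNL (edgeR adjusted p = 0.786) and 1.50 ± 0.14 in Pcf11-13 (edgeR adjusted p = 8.49e-08). GLK1 (YCL040W, chromosome III, 50838 to 52340, plus strand), the glucokinase, had 76.0, 60.5 and 71.1 CPM in Pcf11-DNL, 143, 172 and 170 CPM in Pcf11-13, and 63.2, 70.1 and 70.9 CPM in wild type. Again only the Pcf11-13 libraries stood clear, with a log2 fold change of 1.25 ± 0.08 (edgeR adjusted p = 1.91e-09). The reading frame YCL042W overlaps GLK1 by 106 bases, and its counts came to 0.81% of those of GLK1. HXK2 (YGL253W, chromosome VII, 23935 to 25395, plus strand), the main hexokinase on glucose and a partner in glucose repression, had 1197, 1140.5 and 1168 CPM in Pcf11-DNL, 1054, 1075 and 1058 CPM in Pcf11-13, and 1085, 1101 and 1084 CPM in wild type. Its 3 groups did not overlap, but the difference of Pcf11-13 from wild type was −0.04 ± 0.04 (edgeR adjusted p = 0.391) and turned to 0.18 with library totals in place of TMM. Between the mutants HXK2 was higher in Pcf11-DNL by 0.14 ± 0.04 (edgeR adjusted p = 0.00496).

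Upstream sequences are shown for HXK1 and GLK1 and for the strongly expressed ADH1 and GPM1. They were searched for short motifs known from yeast glycolytic and stress promoters. These were CTTCC (bound by Gcr1, the activator of glycolytic genes) and CACCC with CA after any 3 bases (Rap1, a general activator). The others were TTACCCG (Reb1, a general regulatory factor) and CCCCT (the stress response element of Msn2 and Msn4). Both strands were searched over 700 bases that end 100 bases before each start codon, and the same bases could count for more than 1 motif. Each printed run is the 300 bases of that window with the most bases in matches, 5′ to 3′ on the coding strand, from the RefSeq S288C reference R64 (sacCer3), with matches on either strand in capitals. ADH1 lies at chrXV:160695-160994, minus strand, and GPM1 at chrXI:164486-164785, minus strand. HXK1 lies at chrVI:255342-255641, minus strand, and GLK1 at chrIII:50438-50737, plus strand, where 154 bases are inside another gene.
ADH1: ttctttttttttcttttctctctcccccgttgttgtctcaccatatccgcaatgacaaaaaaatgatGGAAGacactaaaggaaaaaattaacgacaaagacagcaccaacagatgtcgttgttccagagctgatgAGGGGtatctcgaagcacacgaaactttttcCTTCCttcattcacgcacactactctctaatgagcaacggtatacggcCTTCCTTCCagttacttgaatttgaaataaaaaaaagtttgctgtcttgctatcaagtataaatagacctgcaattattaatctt
GPM1: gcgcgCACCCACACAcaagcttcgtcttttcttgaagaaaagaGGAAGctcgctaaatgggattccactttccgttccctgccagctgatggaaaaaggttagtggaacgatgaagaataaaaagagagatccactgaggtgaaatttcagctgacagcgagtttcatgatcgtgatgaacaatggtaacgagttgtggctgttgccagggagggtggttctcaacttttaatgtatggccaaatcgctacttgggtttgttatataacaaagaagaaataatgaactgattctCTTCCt
HXK1: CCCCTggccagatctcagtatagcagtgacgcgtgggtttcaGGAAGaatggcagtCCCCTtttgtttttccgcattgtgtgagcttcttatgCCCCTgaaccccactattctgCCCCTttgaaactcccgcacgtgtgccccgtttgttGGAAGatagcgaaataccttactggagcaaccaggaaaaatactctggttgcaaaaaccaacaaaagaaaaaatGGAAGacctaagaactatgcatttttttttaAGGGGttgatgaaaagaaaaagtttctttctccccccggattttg
GLK1: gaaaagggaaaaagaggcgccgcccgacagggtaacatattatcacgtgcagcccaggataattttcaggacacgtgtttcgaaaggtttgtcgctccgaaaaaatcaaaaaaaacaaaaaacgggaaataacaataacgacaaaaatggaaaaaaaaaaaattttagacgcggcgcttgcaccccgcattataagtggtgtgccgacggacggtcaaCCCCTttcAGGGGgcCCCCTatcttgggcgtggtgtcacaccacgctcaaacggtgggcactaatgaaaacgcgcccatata
The printed HXK1 run holds 5 matches to CCCCT and 3 to CTTCC, and the GLK1 run holds 3 to CCCCT. The ADH1 run holds 4 matches to CTTCC and 1 to CCCCT, and the GPM1 run holds 2 to CTTCC and 1 to the Rap1 motif. These runs do not hold every match. Over the full 700 bases CCCCT matched 5 times for HXK1, 4 for GLK1, 4 for ADH1 and 0 for GPM1. CTTCC matched 4, 0, 5 and 3 times in the same order. HXK2, whose sequence is not printed, had 0 matches to each motif over its 700 bases.

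Over the full 700-base windows, CCCCT was found for 5 of the 6 genes that rose in Pcf11-13, 10 of the 18 that fell and 4 of the 6 that did not pass, and in 44.7% of the windows of all 5877 genes searched. The Rap1 motif was found for 5 of the 18 genes that fell, none of the 6 that rose and 1 of the 6 others, and in 5.96% of all windows. CTTCC was found for 15 of 18, 4 of 6 and 5 of 6 genes in the same groups, and in 78.3% of all windows. TTACCCG was found for 2 genes, TPI1 and TKL1, and in 12.5% of all windows. These are matches of letters and do not show that a factor is bound.

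The preparatory steps between glucose 6-phosphate and the trioses fell together in Pcf11-13. FBA1 (YKL060C, chromosome XI, 326408 to 327487, minus strand), the aldolase, had 13174, 13164 and 13071 CPM in Pcf11-DNL, 9687, 9824 and 9849 CPM in Pcf11-13, and 14642, 14016 and 13479 CPM in wild type. Every Pcf11-13 library lay below every other library, and the Pcf11-DNL libraries lay just below those of wild type. The log2 fold change against wild type was −0.10 ± 0.03 in Pcf11-DNL (edgeR adjusted p = 0.0797) and −0.52 ± 0.03 in Pcf11-13 (edgeR adjusted p = 3.11e-09). PFK1 (YGR240C, chromosome VII, 970771 to 973734, minus strand), the alpha subunit of phosphofructokinase, which commits sugar to glycolysis, had 1347, 1294 and 1279 CPM in Pcf11-DNL, 1059.9, 1040.0 and 1011 CPM in Pcf11-13, and 1518, 1293 and 1317 CPM in wild type. In Pcf11-13 it fell by 0.41 ± 0.05 on the log2 scale (edgeR adjusted p = 5.59e-06), and its partner subunit PFK2 fell by 0.34 ± 0.06. The isomerase PGI1 fell by 0.32 ± 0.04. The triose phosphate isomerase TPI1 was lower by the smallest margin that passed (−0.11 ± 0.05, edgeR adjusted p = 0.0379); that call was lost in 7 other fits, 5 of which left out a single library (replicate 1 of Pcf11-DNL, 1 or 3 of Pcf11-13, 2 or 3 of wild type), and library totals turned it to 0.10.

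In the steps from triose phosphate to pyruvate, some of the most abundant transcripts measured were lower in Pcf11-13, and 1 isozyme set Pcf11-DNL apart. TDH3 (YGR192C, chromosome VII, 882812 to 883810, minus strand), the main glyceraldehyde 3-phosphate dehydrogenase, had 18246, 17339 and 17884 CPM in Pcf11-DNL, 15607, 15786 and 15769 CPM in Pcf11-13, and 20227, 19099.7 and 18548 CPM in wild type. The groups did not overlap. In Pcf11-DNL TDH3 was lower by a narrow margin (−0.11 ± 0.04, edgeR adjusted p = 0.0489), a call lost on leaving out any 1 of 8 libraries (0.0534 to 0.165), all but wild type replicate 3. In Pcf11-13 it fell by 0.30 ± 0.04 (edgeR adjusted p = 2.73e-06). TDH2 (YJR009C), its closest paralog, fell by 0.39 ± 0.04 in Pcf11-13. TDH1 (YJL052W, chromosome X, 338271 to 339269, plus strand), the isozyme used mainly in stationary phase, had 134, 134 and 127 CPM in Pcf11-DNL, 93.1, 99.1 and 90.3 CPM in Pcf11-13, and 92.1, 100.5 and 98.8 CPM in wild type. All 3 Pcf11-DNL libraries lay above the other 6, and Pcf11-13 overlapped wild type. The log2 fold change of TDH1 was 0.44 ± 0.05 in Pcf11-DNL against wild type (edgeR adjusted p = 2.16e-05) and 0.48 ± 0.05 in Pcf11-DNL against Pcf11-13 (edgeR adjusted p = 5.49e-07), and it passed in every alternative fit of both comparisons. Its libraries are listed although its change was under the limit of 0.5 that chose the other genes, a choice made after its values were seen.

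The stretch of coding sequence in which TDH1 and TDH3 differ most over 150 bases is shown, where their reads are easiest to tell apart. Coding bases 61 to 210 are given from the RefSeq reference R64 (sacCer3), 5′ to 3′ on the coding strand. Capitals in TDH1 (chrX:338331-338480, plus strand) and TDH2 (chrX:454472-454621, minus strand) mark bases that differ from TDH3, and capitals in TDH3 (chrVII:883601-883750, minus strand) mark bases where TDH1 differs from it.
TDH1: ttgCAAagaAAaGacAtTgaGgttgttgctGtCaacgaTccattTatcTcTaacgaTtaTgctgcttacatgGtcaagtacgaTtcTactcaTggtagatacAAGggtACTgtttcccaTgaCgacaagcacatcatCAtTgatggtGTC
TDH2: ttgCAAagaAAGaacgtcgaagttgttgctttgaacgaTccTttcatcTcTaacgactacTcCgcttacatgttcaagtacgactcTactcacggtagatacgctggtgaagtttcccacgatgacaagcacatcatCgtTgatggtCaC
TDH3: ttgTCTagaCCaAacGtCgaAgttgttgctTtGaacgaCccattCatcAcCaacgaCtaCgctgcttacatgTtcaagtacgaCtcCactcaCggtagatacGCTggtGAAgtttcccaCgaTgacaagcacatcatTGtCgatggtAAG
In this stretch TDH1 differed from TDH3 at 35 bases and TDH2 at 17. Over the whole coding sequence TDH1 was 88.89% identical to TDH3 and 90.19% identical to TDH2, and TDH2 was 95.8% identical to TDH3. A window as long as a read, 150 bases, occurred elsewhere in the genome for none of the 850 windows of TDH1. It did so for 24 of 850 (2.82%) in each of TDH2 and TDH3, so some reads of TDH2 and TDH3 could be divided between them by estimation. The expected count of TDH1 was a whole number in 0 of 9 libraries, so some of its reads could also be divided by estimation.

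The enolases diverged in the same way. ENO2 (YHR174W, chromosome VIII, 451327 to 452640, plus strand), the enolase induced by glucose, had 18514, 17840.4 and 17769.6 CPM in Pcf11-DNL, 13702, 13876 and 13949.9 CPM in Pcf11-13, and 20614, 19667 and 18669 CPM in wild type. ENO2 fell by 0.12 ± 0.04 in Pcf11-DNL (edgeR adjusted p = 0.0404) and by 0.51 ± 0.04 in Pcf11-13 (edgeR adjusted p = 9.47e-09). ENO1, the enolase that glucose does not induce, averaged 1414 ± 41.7 CPM in Pcf11-DNL, 1259 ± 28.5 CPM in Pcf11-13 and 1279 ± 60.1 CPM in wild type (SD, n = 3 each). Its log2 fold change was 0.14 ± 0.04 in Pcf11-DNL (edgeR adjusted p = 0.0378) and −0.02 ± 0.04 in Pcf11-13 (edgeR adjusted p = 0.663). In Pcf11-DNL the ENO1 call was lost on leaving out any Pcf11-DNL library, Pcf11-13 replicate 2 or 3 or wild type replicate 3, and the ENO2 call on leaving out any Pcf11-DNL or Pcf11-13 library or wild type replicate 2. Phosphoglycerate kinase PGK1 and phosphoglycerate mutase GPM1, each the only such enzyme among the 30 genes, fell in Pcf11-13 by 0.43 ± 0.04 and 0.39 ± 0.05 on the log2 scale.

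At pyruvate kinase, which makes pyruvate and ATP, the main and minor genes moved apart in Pcf11-13. CDC19 (YAL038W, chromosome I, 71786 to 73288, plus strand), the main isozyme, had 10279, 9949 and 10000.3 CPM in Pcf11-DNL, 9101, 8908 and 8942 CPM in Pcf11-13, and 11733, 10620.3 and 10201.5 CPM in wild type. CDC19 fell by 0.27 ± 0.04 in Pcf11-13 (edgeR adjusted p = 4.71e-05), a call lost with library totals (−0.06, adjusted p = 0.137). PYK2 (YOR347C, chromosome XV, 984942 to 986462, minus strand), an isozyme repressed by glucose, had 19.4, 16.9 and 21.7 CPM in Pcf11-DNL, 26.1, 27.2 and 32.6 CPM in Pcf11-13, and 18.2, 18.2 and 19.3 CPM in wild type. The Pcf11-13 libraries lay above all others, with a log2 fold change of 0.62 ± 0.10 (edgeR adjusted p = 4.34e-05).

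In fermentation proper, ADH1 and PDC1 fell and the reserve decarboxylases rose in Pcf11-13. PDC1 (YLR044C, chromosome XII, 232390 to 234081, minus strand), the main pyruvate decarboxylase, had 17620.4, 16540.2 and 16775 CPM in Pcf11-DNL, 13997, 13598 and 13674 CPM in Pcf11-13, and 20716, 18496 and 18018 CPM in wild type. The 3 groups did not overlap. PDC1 fell by 0.17 ± 0.05 in Pcf11-DNL (edgeR adjusted p = 0.023, not passed without its replicate 2 or 3) and by 0.47 ± 0.05 in Pcf11-13 (edgeR adjusted p = 1.98e-07). PDC5 (YLR134W, chromosome XII, 410723 to 412414, plus strand), a decarboxylase known to rise when PDC1 is deleted, had 31.2, 28.7 and 28.4 CPM in Pcf11-DNL, 46.3, 46.0 and 44.9 CPM in Pcf11-13, and 30.1, 24.5 and 29.5 CPM in wild type. Its log2 fold change in Pcf11-13 was 0.71 ± 0.07 (edgeR adjusted p = 5.04e-07). PDC6 (YGR087C, chromosome VII, 651290 to 652981, minus strand), an isozyme known for induction in low sulfur, was at a low level, with 1.64, 1.48 and 2.23 CPM in Pcf11-DNL, 5.35, 6.69 and 4.75 CPM in Pcf11-13, and 1.60, 2.01 and 1.31 CPM in wild type. Those levels rest on 24, 21 and 29 counts in Pcf11-DNL, 76, 103 and 59 counts in Pcf11-13, and 18, 28 and 20 counts in wild type. In Pcf11-13 the log2 fold change of PDC6 was 1.78 ± 0.24 (edgeR adjusted p = 5.95e-06), the highest of the 30 genes. In Pcf11-DNL, PDC5 and PDC6 did not pass (0.07 ± 0.08 and 0.12 ± 0.28).

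ADH1 (YOL086C, chromosome XV, 159548 to 160594, minus strand), the cytosolic alcohol dehydrogenase that makes ethanol, had 10589, 10377 and 10420.4 CPM in Pcf11-DNL, 7159, 7297 and 7235 CPM in Pcf11-13, and 11837, 11238 and 10659 CPM in wild type. The Pcf11-13 libraries lay far below the rest, and the lowest wild type library lay just above the highest Pcf11-DNL library. ADH1 had a log2 fold change of −0.10 ± 0.04 in Pcf11-DNL (edgeR adjusted p = 0.0837) and −0.64 ± 0.04 in Pcf11-13 (edgeR adjusted p = 9.43e-10), the largest drop among the 23 glycolytic and fermentative genes. The mitochondrial isozyme ADH3 averaged 443 ± 4.46 CPM in Pcf11-DNL, 453 ± 8.0 CPM in Pcf11-13 and 450.3 ± 15.7 CPM in wild type (SD, n = 3 each), and ADH5, a minor isozyme, averaged 35.3 ± 0.746, 31.8 ± 2.24 and 33.6 ± 2.51 CPM in the same order. In Pcf11-13 ADH3 and ADH5 had log2 fold changes of 0.01 ± 0.04 and −0.08 ± 0.07, which did not pass. For ADH1, 40 of 898 windows of 150 bases (4.45%) occurred elsewhere in the genome.

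**Figure D2:**
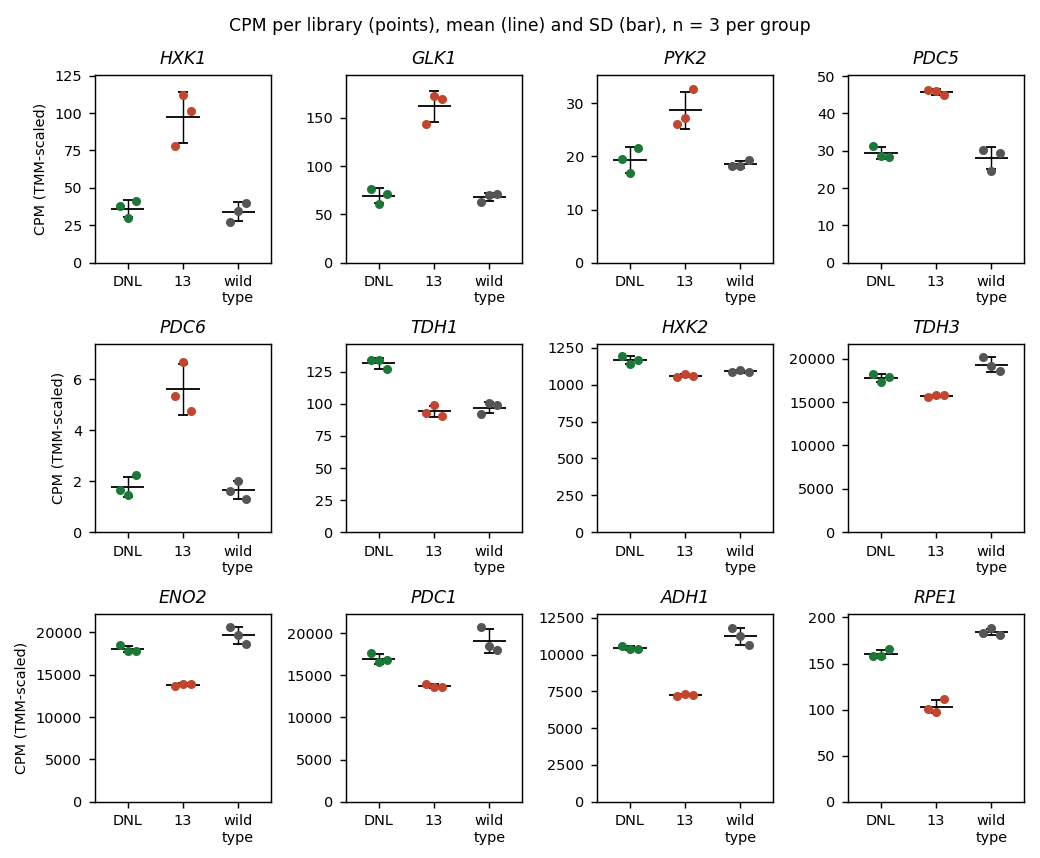
CPM (vertical axis, from 0) in each library of Pcf11-DNL, Pcf11-13 and wild type is plotted for 12 genes, with points for libraries, lines for means and bars for SD (n = 3). The Pcf11-13 points lie above the others for HXK1, GLK1, PYK2, PDC5 and PDC6 and below them for HXK2, TDH3, ENO2, PDC1, ADH1 and RPE1, and the Pcf11-DNL points lie above the others for TDH1.

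Because isozymes of a step catalyse the same reaction, their share of that step's transcripts was also computed from counts per kb of coding length within each library, a ratio that no scaling between libraries can change. Of the transcripts for hexose phosphorylation, HXK1 made up 2.84% ± 0.40 in Pcf11-DNL, 7.36% ± 1.08 in Pcf11-13 and 2.85% ± 0.51 in wild type (SD, n = 3 each). GLK1 made up 5.28% ± 0.44, 11.9% ± 0.84 and 5.56% ± 0.29 in the same order, and HXK2 made up 91.9% ± 0.79, 80.7% ± 1.90 and 91.6% ± 0.79. The Pcf11-13 libraries did not overlap those of the other groups in any of these shares.

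The other steps apart from phosphofructokinase kept 1 dominant isozyme in every library. ENO1 held 7.27% ± 0.045 of enolase transcripts in Pcf11-DNL, 8.34% ± 0.16 in Pcf11-13 and 6.11% ± 0.26 in wild type, with no overlap between any pair of groups. ADH3 held 3.77% ± 0.074, 5.47% ± 0.078 and 3.58% ± 0.16 of the transcripts of the 3 alcohol dehydrogenases, and TDH1 held 0.62% ± 0.023, 0.51% ± 0.024 and 0.43% ± 0.036 of those of its enzyme. The share of TDH2 was lowest in Pcf11-13, at 15.6% ± 0.56 in Pcf11-DNL, 14.0% ± 0.046 in Pcf11-13 and 14.8% ± 0.24 in wild type. PDC5 held 0.173% ± 0.0039 of decarboxylase transcripts in Pcf11-DNL, 0.331% ± 0.0051 in Pcf11-13 and 0.147% ± 0.016 in wild type, and PDC1 held over 99% in every library. PFK1, whose product pairs with that of PFK2 in 1 complex, held 52.8% ± 0.40 in Pcf11-DNL, 51.4% ± 0.42 in Pcf11-13 and 52.7% ± 0.30 in wild type. With 3 libraries a group, the two-sided exact permutation test of a share cannot go below 0.1, and over the 54 comparisons made the smallest Benjamini-Hochberg value was 0.126.

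**Figure D3:**
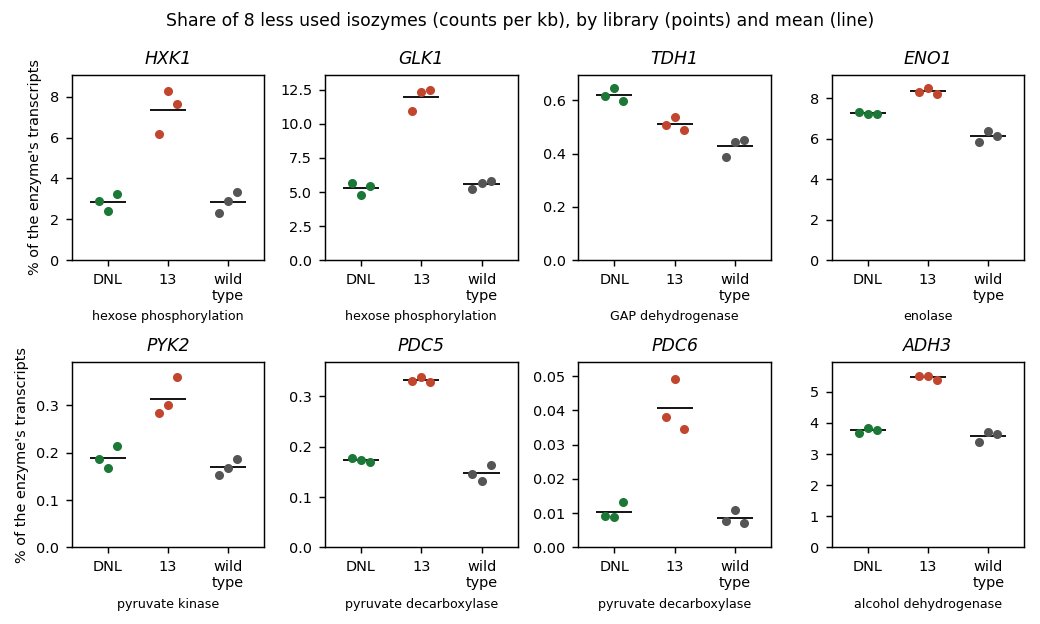
The share of 8 less used isozymes in their enzymes' transcripts (vertical axis, percent of summed counts per kb, from 0) is plotted by library for Pcf11-DNL, Pcf11-13 and wild type, with lines for means. Of these 8 shares all but that of TDH1, whose mean share is 0.62% in Pcf11-DNL, are highest in Pcf11-13; TDH2 and ADH5 are not drawn.

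Of the 7 pentose phosphate genes ZWF1 rose in Pcf11-13, and genes of both arms fell. In the oxidative arm ZWF1 (YNL241C), glucose 6-phosphate dehydrogenase, had 250.4, 185 and 239.8 CPM in Pcf11-DNL, 285, 302 and 312 CPM in Pcf11-13, and 225, 249 and 219.7 CPM in wild type; it was the only one of the 7 to rise (0.38 ± 0.08, edgeR adjusted p = 0.000975). Its libraries are given although the change is under the limit of 0.5, since it was singled out after its values were seen. The lactonase SOL3 fell by 0.22 ± 0.05 and 6-phosphogluconate dehydrogenase GND1 by 0.19 ± 0.07 on the log2 scale. The GND1 call (edgeR adjusted p = 0.0205) was lost on leaving out replicate 1 or 3 of Pcf11-13 or replicate 2 of wild type (0.0558 to 0.156) and turned to 0.03 with library totals, and that of SOL3 was lost with library totals (−0.01).

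In the nonoxidative arm, RPE1 (YJL121C, chromosome X, 190374 to 191090, minus strand), the ribulose 5-phosphate epimerase, had 158, 158 and 166 CPM in Pcf11-DNL, 100.9, 97.2 and 111 CPM in Pcf11-13, and 183, 188 and 181 CPM in wild type. All 3 groups stood apart. RPE1 fell by 0.20 ± 0.05 in Pcf11-DNL (edgeR adjusted p = 0.0128, not passed without its replicate 1 or 2 or with library totals) and by 0.84 ± 0.05 in Pcf11-13 (edgeR adjusted p = 9.28e-10), the largest drop of the 30 genes. RKI1 (YOR095C, chromosome XV, 503552 to 504328, minus strand), the ribose 5-phosphate isomerase that works beside it, had 169, 178 and 171 CPM in Pcf11-DNL, 118, 111 and 111 CPM in Pcf11-13, and 174, 168 and 157 CPM in wild type. It fell by 0.55 ± 0.05 in Pcf11-13 (edgeR adjusted p = 6.15e-08), while Pcf11-DNL overlapped wild type (0.05 ± 0.05). The transketolase TKL1 fell by 0.15 ± 0.04 in Pcf11-DNL (edgeR adjusted p = 0.0254, not passed on leaving out any of its libraries) and by 0.28 ± 0.04 in Pcf11-13 (edgeR adjusted p = 1.72e-05). The transaldolase TAL1 had −0.09 ± 0.05 in Pcf11-13 (edgeR adjusted p = 0.167) and passed at −0.16 without wild type replicate 1 (0.000748).

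In Pcf11-DNL the remaining changes were small. Besides TDH1 and ENO1, which rose, and TDH3, ENO2, PDC1, RPE1 and TKL1, which fell, the other 23 genes had log2 fold changes between −0.11 and 0.12 against wild type. The number of genes that fell depended on single libraries: it was 5 with all libraries, 3 without any 1 Pcf11-13 library or wild type replicate 2, 1 without Pcf11-DNL replicate 1 or 3, 0 without Pcf11-DNL replicate 2, and 8 without wild type replicate 3. In that fit without Pcf11-DNL replicate 2, TDH1 alone of the 30 passed. Without wild type replicate 1 the call of TDH3 was lost and those of ENO2, PDC1, RPE1 and TKL1 were kept. With library totals the calls of TDH3, ENO2, RPE1 and TKL1 were lost and that of PDC1 was kept.

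Set directly against Pcf11-13, Pcf11-DNL had higher transcripts for all 13 main glycolytic and fermentative genes, by 0.14 to 0.53 on the log2 scale, with ADH1 first (0.53 ± 0.04, edgeR adjusted p = 1.04e-08); with library totals HXK2 turned to −0.03 and PFK2, TPI1, TDH3 and CDC19 no longer passed. The largest of the 20 increases were in RPE1 (0.64 ± 0.05) and RKI1 (0.61 ± 0.05). The 6 genes lower in Pcf11-DNL than in Pcf11-13 were PDC6 (−1.66 ± 0.23), HXK1 (−1.43 ± 0.13), GLK1 (−1.23 ± 0.08), PDC5 (−0.63 ± 0.07), PYK2 (−0.56 ± 0.10) and ZWF1 (−0.41 ± 0.08). ADH3, ADH5, GND1 and TAL1 did not pass.

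Taken as a sum, the 30 genes held 11.4% ± 0.18 of all counts in Pcf11-DNL, 10.3% ± 0.11 in Pcf11-13 and 11.7% ± 0.22 in wild type (SD, n = 3 each). By library these were 11.5, 11.2 and 11.3% in Pcf11-DNL, 10.2, 10.4 and 10.3% in Pcf11-13, and 11.9, 11.8 and 11.5% in wild type. The Pcf11-13 libraries lay below all others. The difference from wild type was −0.37 percentage points in Pcf11-DNL (two-sided exact permutation p = 0.2) and −1.41 in Pcf11-13 (two-sided exact permutation p = 0.1, the smallest that 3 against 3 libraries allow). The less used isozymes together held 0.53%, 0.52% and 0.51% in Pcf11-DNL, Pcf11-13 and wild type. All 23 glycolytic and fermentative genes held 11.0%, 9.92% and 11.3%, so the drop was that of their main genes. The 7 pentose phosphate genes held 0.372%, 0.384% and 0.381% in the same order, with 0.124%, 0.137% and 0.125% in the oxidative arm. Within the nonoxidative arm the share was 0.248%, 0.247% and 0.257% in the same order.

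Level and change were related across the 30 genes. Level was taken per kb of coding length in the Pcf11-DNL libraries. Those are neither side of the comparison of Pcf11-13 with wild type, but they share its filter, TMM scaling and estimate of the spread. TDH3 stood at rank 1 of the 5640 genes with a coding length, ENO2 at rank 2, FBA1 at rank 3 and PDC1 at rank 5. ADH1 stood at rank 6, GPM1 at rank 8 and CDC19 at rank 9, while PDC6 stood at rank 5616. Across the 30 genes the level correlated with the log2 fold change in Pcf11-13 at a Spearman rho of −0.65 and a Pearson r of −0.76 (log scale), and across all 5640 genes at −0.52 and −0.49. Genes share libraries and their scaling, and are not independent replicates. Of the 100 genes with the highest level, 10 are among the 30 and all 10 fell in Pcf11-13 (median −0.41); the other 90 also all fell (median −0.46). With library totals 8 of the 10 and 80 of the 90 fell, at medians of −0.19 and −0.25. The abundant glycolytic genes thus moved in the same direction as the other most abundant transcripts.

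**Figure D4:**
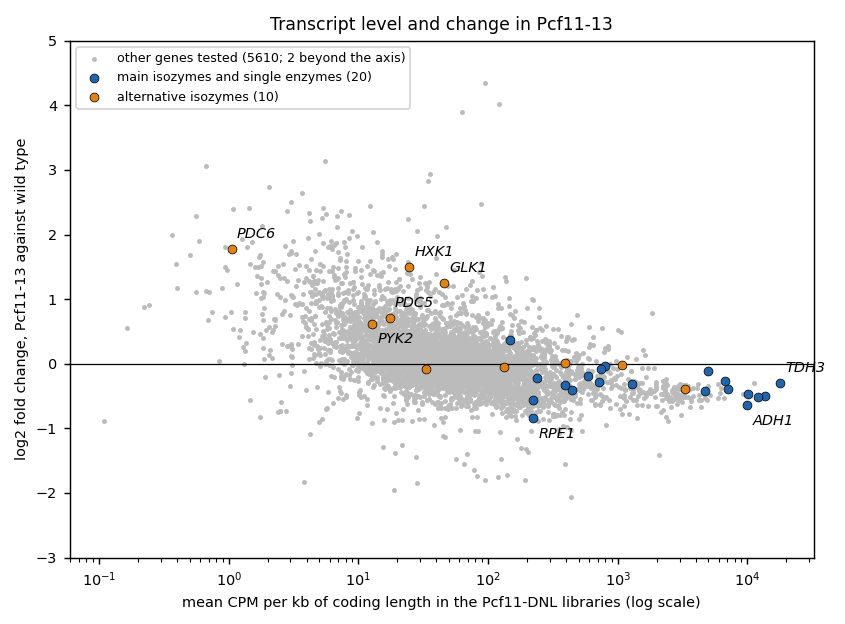
Mean CPM per kb of coding length in the Pcf11-DNL libraries (horizontal log axis) is plotted against the log2 fold change of Pcf11-13 against wild type for main isozymes and single enzymes (blue), less used isozymes (orange) and other genes (grey). Among the 30 genes those at high level lie below 0 and PDC6, HXK1, GLK1, PDC5 and PYK2, all at low level, lie above it.

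The scaling between libraries sets where 0 lies. With library totals in place of TMM the median of all genes in Pcf11-13 against wild type was 0.25 instead of 0.03, and that of the 30 genes −0.03 instead of −0.25, so that the distance between them was −0.28 under both. With library totals 10 of the 30 genes were higher and 13 lower in Pcf11-13 (79.7% of all calls were higher, against 53.3% with TMM). Of all 5646 genes tested, 3372 were higher and 861 lower under that scaling. HXK2, TDH1, ENO1 and ADH3 were then called higher at 0.17 to 0.22, and TPI1, CDC19, SOL3, GND1 and TKL1 were no longer called lower.

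Genes known to regulate these enzymes changed in both directions in Pcf11-13. Of 9 regulators 4 rose and 3 fell, near the background of 35.2% and 30.9% of all genes. Those that rose were STB5, an activator of pentose phosphate genes (0.48 ± 0.08), GCR1 (0.21 ± 0.05) and GCR2 (0.19 ± 0.04), the activators of glycolytic genes, and MIG1, a glucose repressor (0.15 ± 0.05). The general regulatory factor genes RAP1 and REB1 fell by 0.43 ± 0.05 and 0.28 ± 0.04 on the log2 scale, and PDC2, an activator of decarboxylase genes, fell by 0.20 ± 0.05. TYE7 (0.07 ± 0.04) and ABF1 (−0.10 ± 0.06) did not pass. In Pcf11-DNL, GCR1 (0.15 ± 0.05, edgeR adjusted p = 0.0489) and TYE7 (0.15 ± 0.04, edgeR adjusted p = 0.0212) rose, and the other 7 did not pass.

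The neighbouring reactions were followed in 59 further genes, the regulators included, of which 58 were tested. In Pcf11-13, 28 of them rose and 14 fell (background 35.2% and 30.9%), and in Pcf11-DNL 6 rose and 4 fell (background 8.73% and 4.30%), shares near those of all genes in Pcf11-DNL. With 1 library left out, 2 to 6 rose and 0 to 4 fell in Pcf11-DNL. These counts, which include GCR1 and TYE7, thus depended on single libraries. Among gluconeogenic genes and those for fructose 2,6-bisphosphate, the activator of phosphofructokinase, 5 of 7 rose in Pcf11-13. They were PFK26 (1.57 ± 0.05) and FBP26 (0.83 ± 0.05), which make and remove fructose 2,6-bisphosphate, PYC1 (1.16 ± 0.07), a pyruvate carboxylase, PCK1 and PYC2. FBP1 (0.24 ± 0.20) and PFK27 (−0.03 ± 0.05) did not pass. PFK26 (0.29 ± 0.05, edgeR adjusted p = 0.00136) and FBP26 (0.16 ± 0.05, edgeR adjusted p = 0.046) also rose in Pcf11-DNL. Of 7 tested genes for further isozymes 4 rose and 1 fell in Pcf11-13. Those that rose include ERR2, whose Pcf11-13 libraries overlapped wild type. Its Pcf11-13 counts were 82, 155 and 24.4, and those of ERR1, which did not pass, were 82, 0 and 96.3. ERR1 and ERR2 had equal counts in each library of the other groups, so the ERR2 call depends on how reads were divided between them. PGM2, the phosphoglucomutase induced by stress, rose by 1.16 ± 0.07 and EMI2, a glucokinase paralog, by 0.79 ± 0.09, while PGM1 fell by 0.31 ± 0.04. By contrast, PGM2 fell by 0.26 ± 0.07 in Pcf11-DNL (edgeR adjusted p = 0.0298).

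Acetaldehyde and glycerol genes moved in both directions in Pcf11-13. Of 12 genes for acetaldehyde, ethanol and acetate 4 rose, near the background of 35.2%, among them the aldehyde dehydrogenases ALD4 (1.09 ± 0.08) and ALD3 (1.26 ± 0.12), and 2 fell, the acetyl-CoA synthetase ACS2 (−0.51 ± 0.04) and the aldehyde dehydrogenase ALD6 (−0.25 ± 0.06). Of 11 genes of glycerol metabolism 8 rose and 3 fell. The largest increases were in the dihydroxyacetone kinase DAK2 (2.01 ± 0.11), the glycerol transporter STL1 (1.72 ± 0.13) and the mitochondrial dehydrogenase GUT2 (1.65 ± 0.06), while GUT1 (0.27 ± 0.06) and DAK1 (0.25 ± 0.04), also of glycerol use, rose less. Of the 4 glycerol synthesis genes, GPP1 and GPD2 fell by 0.71 ± 0.05 and 0.47 ± 0.05 on the log2 scale, and GPD1 and GPP2 rose by 0.53 ± 0.09 and 0.49 ± 0.06. In Pcf11-DNL, DAK2 (0.49 ± 0.12) and STL1 (0.54 ± 0.15) rose. There GPD2 fell by 0.21 ± 0.05, ALD6 by 0.26 ± 0.06 and ADH6 by 0.15 ± 0.04.

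Of 12 other genes of the pentose phosphate pathway and of ribose 5-phosphate use, 3 rose and 5 fell in Pcf11-13, near the background of 35.2% and 30.9%. The transaldolase paralog NQM1 rose by 1.61 ± 0.14, the lactonase paralog SOL4 by 0.99 ± 0.18 and the transketolase paralog TKL2 by 0.29 ± 0.09. PRS3, a subunit of the synthetase that makes phosphoribosyl pyrophosphate for nucleotides, fell by 1.01 ± 0.06, PRS4 by 0.45 ± 0.06, and SHB17, a sedoheptulose bisphosphatase, by 0.37 ± 0.05. The paralogs SOL4, NQM1 and TKL2 thus rose while SOL3 and TKL1 fell and TAL1 did not pass. The further paralogs SOL1, SOL2 and GND2 were not among the 3 genes that rose.

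**Figure D5:**
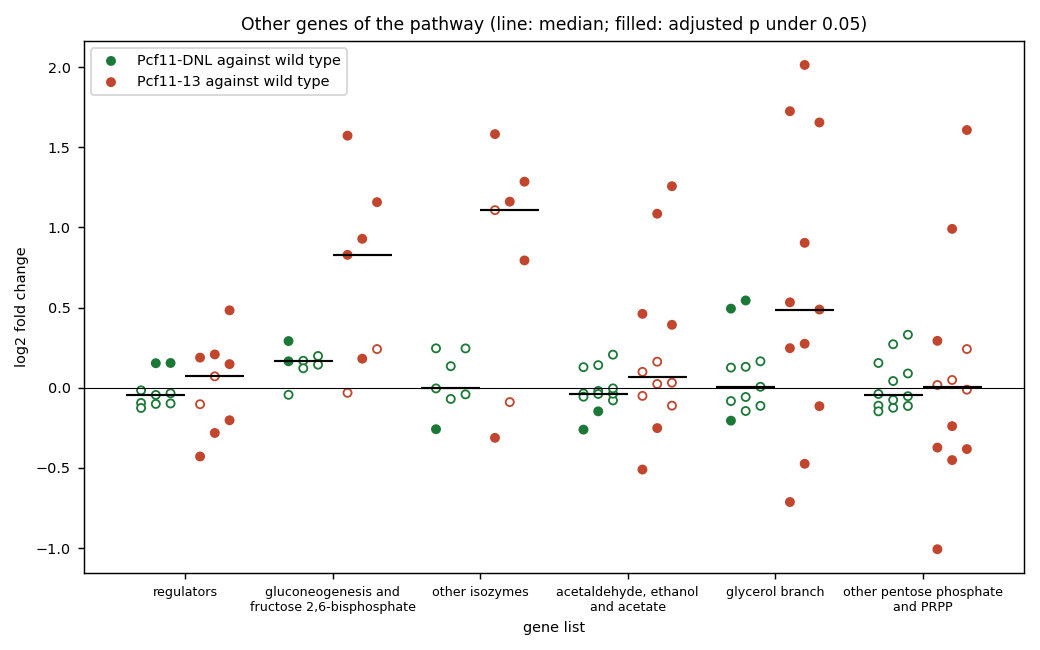
The log2 fold change (vertical axis) of regulators and of 5 lists of neighbouring pathway genes is plotted for Pcf11-DNL (green) and Pcf11-13 (red), each against wild type; filled points have an edgeR adjusted p under 0.05 and lines are list medians. The Pcf11-13 medians stand at 0.83 for gluconeogenesis and fructose 2,6-bisphosphate and 0.49 for the glycerol branch, and the Pcf11-DNL medians of those lists at 0.16 and 0.01.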

How the data were processed

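Poly(A) RNA of 9 cultures was sequenced in paired reads of 150 bases, per the labels' protocols. The authors deposited expected counts (estimated read counts per gene, not normalized) for 5928 genes; 10.8% of values were not whole within 0.005. Per the submitters' processing notes, the build was sacCer3 and the tools were RSEM 1.3, STAR 2.6.1b, Trimmomatic 0.38, FastQC and DESeq2 1.26.0. Which annotation and strand setting were used is not given in the sources used here, so reads of overlapping antisense transcripts cannot be told apart. Library totals are given with the groups; they bound counting error only.

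After rounding, the counts were fitted with edgeR 4.0.16 (R 4.3.3): filterByExpr (minimum count 10, 282 genes removed), TMM scaling, 1 quasi-likelihood model of all 9 libraries with a term for the group, and Benjamini-Hochberg adjustment over the 5646 genes tested. Each adjusted p for a gene is from this two-sided F test; SE is the standard error of the log2 fold change. The biological coefficient of variation was 4.59%. Alternatives were DESeq2 size factors and the Wald test (DESeq2 1.42.0), library totals, TMM without the 30 genes, no filter, a mean of at least 5 CPM, limma-voom (limma 3.58.1), fits of only the groups compared, a block for replicate number, an adjusted p under 0.01, and leaving out each library. The shares of isozymes per kb were recomputed from plain counts and without each library, alternatives chosen after seeing the data.

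The 30 genes and all lists were chosen with earlier results of these data known. Levels in every library are given for members with an adjusted p under 0.05 and an absolute log2 fold change of at least 0.5 in any comparison. They are also given for the most abundant isozyme of an enzyme. Of other lists, all regulators and up to 3 genes per direction and comparison with the smallest adjusted p are named. Some further genes of those lists are named to complete a count or to show what did not pass. Positions and sequences are from RefSeq R64, in which 5919 genes of the table were found by systematic name; the w303 strains may differ from that S288C sequence. The labels call the replicates biological and do not say from which clones they came.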

Additional observations from a re-analysis of the deposited data

How the results depend on the processing

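In Pcf11-13 against wild type, the counts of the 30 genes stayed within 1.5 times of 6 higher and 18 lower in all alternatives but library totals, which gave 10 higher. Library totals also gave 9 of the other pathway genes lower (14 with TMM), 3372 and 861 of all genes higher and lower (1988 and 1744), and a median of −0.033 for the 30 genes. They turned HXK2 (0.18), TPI1 (0.10), TDH1 (0.17), ENO1 (0.19), ADH5 (0.13), GND1 (0.026) and TAL1 (0.13) positive. ADH3, near 0, was −0.013 with DESeq2 size factors and with the Wald test and −0.016 to 0.035 without single libraries, and ENO1 was −0.056 to 0.012. In Pcf11-DNL against Pcf11-13 library totals gave 12 of the 30 and 7 of the other pathway genes higher, 870 and 2982 of all genes higher and lower, a median of 0.011, and HXK2 (−0.026), SOL3 (−0.0093) and TKL1 (−0.031) below 0. In Pcf11-DNL against wild type library totals turned the median to 0.017 and gave 1 of the 30, 2 of the other pathway genes and 124 of all genes lower. There 1 of the 30 was higher with DESeq2 size factors. The fit of those groups alone gave 1 higher and 1 lower of the 30, 2 other pathway genes lower and 155 of all genes lower. At an adjusted p under 0.01, edgeR called 1 of the 30 higher and 0 lower (5 at 0.05; the other tools were not run at that limit), 1 and 0 of the other pathway genes, and 273 and 86 of all genes. Without single libraries, 1 to 2 of the 30 were higher and 0 to 8 lower, 2 to 6 and 0 to 4 of the other pathway genes, 129 to 233 of all genes lower, and the median was −0.062 to −0.0098. Residuals of libraries with the same replicate number correlated at −0.13 to 0.32, so the numbers were not taken as pairs; as a block they gave 6 higher and 19 lower of the 30 in Pcf11-13 against wild type, and 1 of the 30 higher and 2 of the other pathway genes lower in Pcf11-DNL against wild type, each in the compared groups alone. At the depth of these libraries the level of PDC6, at 18 to 103 counts, is the least precise.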
